A study of Mus musculus with 5 samples.

Results

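The genes described here are cyclins and inhibitors of cyclin-dependent kinases in mouse embryonic stem cells depleted of Tet1, an enzyme that converts 5-methylcytosine in DNA to 5-hydroxymethylcytosine. They are the cyclins Ccnd2, Ccnd3, Ccne1, Ccne2, Ccna2 and Ccnb1 and the inhibitors Cdkn1b, Cdkn2a, Cdkn2b and Cdkn2c. They were chosen by symbol, as every probe set that the platform annotation gives exactly 1 gene symbol among these 10. Of the 10 genes, 9 had such a probe set, 20 probe sets in all, out of 18193 genes on the array. Ccnb1 was listed with none and was not analysed here.

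RNA was measured on 5 Affymetrix arrays with 1 biotin-labelled sample each, so no group has a replicate. The error of a difference between 2 arrays therefore cannot be estimated from that pair. J1 cells grown on mouse embryonic fibroblast feeders received a control siRNA or a Tet1 siRNA and were collected on day 4. E14 cells grown without feeders were infected with lentivirus that carried a scrambled hairpin or Tet1 shRNA3387 or shRNA2863, and were taken after 4 days of puromycin selection. Both are established lines. They differ in line, in feeders and in how Tet1 was depleted, and what each of these adds to a difference between J1 and E14 cannot be told apart. No other allele, genotype or clone is named in the labels, and the J1 samples can include feeder RNA. Tet1 itself, at its brightest probe set, differed from the control of the same line by -2.54 on the log2 scale with the siRNA, -1.71 with shRNA3387 and -0.89 with shRNA2863, so the weakest depletion was that of shRNA2863.

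Cyclins bind and activate cyclin-dependent kinases, and the pairs follow each other through the cell cycle. D-type cyclins act with Cdk4 and Cdk6 in G1 and respond to growth signals, E-type cyclins act with Cdk2 at the entry into S phase, cyclin A2 acts in S and G2 phase, and cyclin B1 acts with Cdk1 in mitosis. INK4 inhibitors, which Cdkn2a, Cdkn2b and Cdkn2c encode, block Cdk4 and Cdk6, while p27, the product of Cdkn1b, binds cyclin-kinase pairs more broadly. Mouse embryonic stem cells are known for a short G1 phase, high cyclin E and kinase activity through much of the cycle, and low levels of most inhibitors.

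Values are log2 probe set summaries as deposited. The level of a probe set depends on its probes, so levels are compared between arrays and not between genes. A probe set counts as above the filter on an array where it exceeds the 40th percentile of all probe sets other than array controls, which lay between 3.03 and 3.12 on the 5 arrays. Of the 20 probe sets, 14 were above it on all 5 arrays and 19 on at least 1. The exception was 1 of the 7 Ccnd2 probe sets, at 2.54 to 2.64. A gene is represented by its brightest probe set unless another is named. Stem cell markers were present on all 5 arrays, with all 10 of 10 above the filter throughout and Pou5f1 between 11.24 and 11.73.

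Over both lines the 9 measured genes fell into 3 patterns, shown in the plot of levels on the 5 arrays. Ccnd2 and Cdkn1b were higher on every E14 array than on either J1 array. Ccnd3, Ccna2, Cdkn2b and Cdkn2c were lower on every E14 array than on either J1 array. Such non-overlap was common: 48.9% of all genes above the filter on at least 1 array had it (27.1% with E14 above and 21.8% with E14 below). Ccne1, Ccne2 and Cdkn2a overlapped between the lines, and each differed more under every Tet1 depletion than between the control arrays.

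**Figure D1:**
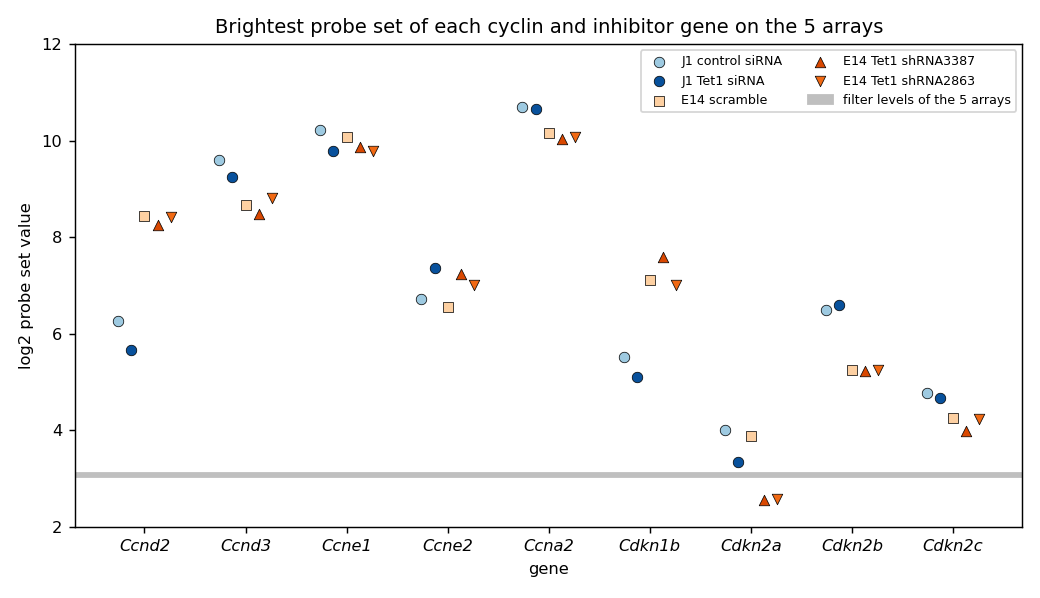
Log2 value (vertical axis) of the brightest probe set of each of the 9 measured genes on each of the 5 arrays, 1 point per array, with a grey band for the filter levels of 3.03 to 3.12. Ccnd2 and Cdkn1b sit higher in E14, Cdkn2b lower, and Cdkn2a drops under the band with both Tet1 hairpins.

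The bases before the transcription start of Cdkn2a, Cdkn2b and Cdkn1b are shown because Cdkn2a was the gene with the largest differences under Tet1 depletion, Cdkn2b is its neighbour, and Cdkn1b was the inhibitor that differed most between the lines. Each run holds the 250 bases before a start in RefSeq's annotation of mouse assembly GRCm38.p6, 5′ to 3′ on the gene's own strand, with every CpG dinucleotide, the site of DNA methylation, in capitals. Cdkn2a has 2 starts. The upstream one begins the transcript of p19Arf, which stabilizes p53, and the downstream one that of p16Ink4a, which inhibits Cdk4 and Cdk6.
Cdkn2a, p19Arf start, chr4:89294620-89294869, minus strand: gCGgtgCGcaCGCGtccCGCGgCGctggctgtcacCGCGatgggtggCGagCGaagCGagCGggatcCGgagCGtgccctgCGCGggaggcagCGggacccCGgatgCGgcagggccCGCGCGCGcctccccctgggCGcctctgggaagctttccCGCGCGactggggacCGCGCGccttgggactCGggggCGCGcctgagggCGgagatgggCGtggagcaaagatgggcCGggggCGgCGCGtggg
Cdkn2a, p16Ink4a start, chr4:89282193-89282442, minus strand: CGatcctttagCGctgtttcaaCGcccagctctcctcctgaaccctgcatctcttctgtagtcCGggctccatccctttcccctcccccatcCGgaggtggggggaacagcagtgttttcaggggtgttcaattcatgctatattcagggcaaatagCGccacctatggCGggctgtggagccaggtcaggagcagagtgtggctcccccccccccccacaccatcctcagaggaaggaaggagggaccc
Cdkn2b, chr4:89311033-89311282, minus strand: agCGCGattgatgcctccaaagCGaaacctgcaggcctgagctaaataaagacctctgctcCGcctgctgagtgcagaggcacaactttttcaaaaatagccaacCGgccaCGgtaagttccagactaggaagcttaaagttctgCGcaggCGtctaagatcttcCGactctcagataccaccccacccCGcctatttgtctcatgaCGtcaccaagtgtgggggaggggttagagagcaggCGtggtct
Cdkn1b, chr6:134920151-134920400, plus strand: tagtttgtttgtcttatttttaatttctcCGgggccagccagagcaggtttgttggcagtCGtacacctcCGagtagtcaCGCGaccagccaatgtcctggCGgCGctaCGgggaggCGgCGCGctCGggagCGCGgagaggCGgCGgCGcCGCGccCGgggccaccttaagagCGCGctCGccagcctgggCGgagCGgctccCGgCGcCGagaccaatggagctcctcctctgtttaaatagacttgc

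The windows differ widely in CpG content. The p19Arf window holds 40 CpGs and has a GC content of 78.4%, and 1.3% of the 32851 promoter windows in the table hold as many CpGs. The p16Ink4a window of the same gene holds 7, close to the median of 6, and 46.3% of windows hold as many. Cdkn2b holds 12 and Cdkn1b 28. Among the other members in the table, Ccne1 holds 34, Ccnd3 11 and 19 at its 2 starts, and Cdkn2c 6 and 29. In all, 7 of the 10 genes matched, and Ccnd2, Ccne2 and Ccna2 did not. The E2F motif, searched as TTTCCCGC, TTTGGCGC, TTTGCCGC or TTTCGCGC on both strands, occurs in 1 of the 10 member windows, that of p19Arf, as TTTCCCGC, and in 1.9% of all windows of this length. CCAAT occurs on either strand at 1 of the 2 Ccnd3 starts and in the Ccnb1 and Cdkn1b windows, which hold 2 each, and in 33.8% of all windows. These matches are descriptions of letters, and overlap between motifs was not removed.

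Cdkn2a was lower on each Tet1-depleted array than on the control array of its line. Its 1 probe set read 4.01 in the J1 control and 3.34 with Tet1 siRNA. In E14 it read 3.88 with scramble, 2.55 with shRNA3387 and 2.58 with shRNA2863. Both control arrays thus read highest, and the Tet1 hairpin arrays read lowest. How many other genes show this order was not counted. The difference was -0.67 in J1, or 1.59-fold lower. These J1 values are dim too, since the filter levels there were 3.03 and 3.06. Both hairpin values lie under the filter level, where an array value may hold little but background, so the deposited differences of -1.33 and -1.30 have no exact fold. Set against the filter level of each hairpin array, Cdkn2a was at least 1.78-fold lower with shRNA3387 and at least 1.73-fold lower with shRNA2863. Both hairpins are set against the same scramble array, so those 2 differences are not independent. The probe set carries a single gene symbol, and p16Ink4a and p19Arf share exons, so the values give no split between the transcripts whose starts are shown above.

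By the deposited values, 1 of the 9 genes was at least 2-fold lower with both hairpins, Cdkn2a, whose bounds do not reach 2-fold, against 0.301% of the 13619 genes kept by the filter. It was also the 1 gene of the 9 at least 1.5-fold lower in each of the 3 depletions, as were 0.301% of kept genes. In E14 only its scramble array was above the filter, so the hairpin part of that count rests on values at background. In the limma fit with a line term and a Tet1 term, Cdkn2a differed by -1.04 ± 0.17 (SE, 3 depleted and 2 control arrays), with an unadjusted p of 0.0045 and a Benjamini-Hochberg adjusted p of 0.7, so it did not pass the test. This estimate includes the hairpin values under the filter. The limma tests of E14 alone and of the E14 effect against the J1 effect gave Cdkn2a adjusted p-values of 0.342 and 0.332. Their estimates are not given, because both the size and the spread rest on those 2 values. No gene passed any of these 3 tests (0%). At an unadjusted p under 0.05, the Tet1 term held 6.87% of genes, the E14 effect 11% and the difference of effects 13.9%.

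The neighbouring Cdkn2b, 11669 bases from Cdkn2a on chromosome 4, showed no such difference. Cdkn2b encodes p15, which inhibits Cdk4 and Cdk6 and is a target of transforming growth factor beta signalling. Its 1 probe set read 6.49 and 6.59 in J1 with control and Tet1 siRNA, and 5.24, 5.22 and 5.25 in E14 with scramble, shRNA3387 and shRNA2863. The depletions moved it by 0.10, -0.02 and 0.01, while the lines lay apart with no overlap. All E14 arrays were likewise below both J1 arrays at 21.8% of all kept genes. The pooled Tet1 difference was 0.04 ± 0.09 (SE; limma adjusted p = 0.942).

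Cdkn2c, which encodes p18, read 4.77 and 4.66 in J1 and 4.26, 3.99 and 4.23 in E14, in the same order of arrays. The depletions differed by -0.11, -0.27 and -0.03, and the pooled difference was -0.13 ± 0.11 (SE; limma adjusted p = 0.755). It was above the filter on all arrays, and the E14 arrays were all lower than the J1 arrays, as at 21.8% of all kept genes.

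Cdkn1b, which encodes p27, had no shared direction under depletion. It read 5.52 in J1 with control siRNA and 5.10 with Tet1 siRNA, then 7.12 with scramble, 7.59 with shRNA3387 and 7.0 with shRNA2863. Its differences were -0.42, 0.47 and -0.12, and the hairpin arrays lay 0.59 apart, more than either lay from the scramble array. The pooled difference was -0.08 ± 0.27 (SE; limma adjusted p = 0.97). Its other probe set was above the filter only with Tet1 siRNA, at 3.25.

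**Figure D2:**
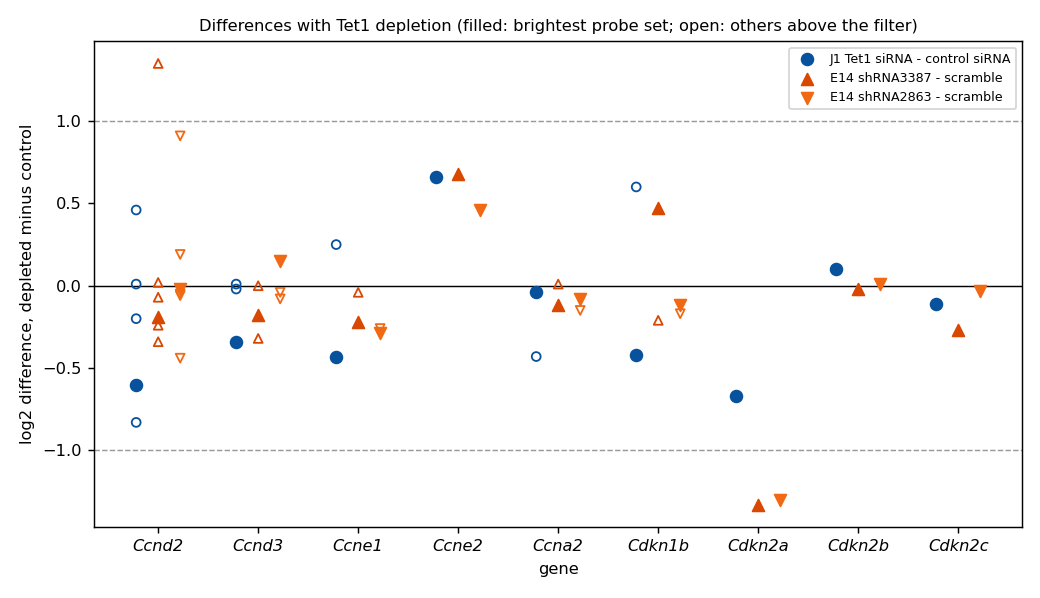
Log2 difference of each Tet1-depleted array from the control array of its own line (vertical axis) for the 9 genes, with filled points for the brightest probe set, open points for other probe sets above the filter, and dashed lines at 2-fold. Ccne2 lies above 0 and Cdkn2a below 0 in each depletion, and the Ccnd2 probe sets spread on both sides.

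Neither E-type cyclin passed the Tet1 test. Ccne2 was higher on each depleted array: its 1 probe set read 6.71 and 7.37 in J1 with control and Tet1 siRNA, and 6.55, 7.23 and 7.01 in E14 with scramble, shRNA3387 and shRNA2863. All 3 depleted arrays were above both control arrays, an order whose share over all kept genes was not counted. The differences were 0.66, 0.68 and 0.46, or 1.58-fold, 1.60-fold and 1.38-fold higher. In the limma fit over both lines Ccne2 differed by 0.61 ± 0.12 (SE), with an unadjusted p of 0.00858 and an adjusted p of 0.7, so it did not pass.

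Ccne1 read 10.21 and 9.78 in J1 and 10.08, 9.86 and 9.79 in E14, with differences of -0.43, -0.22 and -0.29. Its control arrays were thus both above its depleted arrays, and the share of kept genes with this order was not counted. The pooled difference was -0.33 ± 0.08 (SE; unadjusted p = 0.0175, limma adjusted p = 0.7). Its other probe set did not share this pattern, with differences of 0.25, -0.04 and -0.26, and a pooled estimate of 0.02 when every probe set was tested by itself.

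Ccna2, the S and G2 phase cyclin, differed by at most 0.12 in size from its controls at its brightest probe set, which read 10.69 and 10.65 in J1 and 10.15, 10.03 and 10.07 in E14. Its second probe set differed by -0.43, 0.01 and -0.15. The pooled difference of the brightest was -0.07 ± 0.06 (SE; limma adjusted p = 0.769).

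Of the D-type cyclins, Ccnd2 was lower with Tet1 siRNA in J1 at the 3 brightest of its 7 probe sets, by -0.60, -0.60 and -0.83, and the fourth differed by 0.46. The 3 values are 1.52-fold, 1.52-fold and 1.78-fold. The direction in J1 thus depended on the probe set. The median over the probe sets, taken on each array, was 3.72 with control siRNA and 3.95 with Tet1 siRNA. These are values of 2 different probe sets, so the median difference of 0.23 is that of no single probe set. With the hairpins those 3 probe sets differed by -0.24 to 0.19. A dim probe set went another way: it read 3.40 with scramble, 4.75 with shRNA3387 and 4.31 with shRNA2863, 2.55-fold and 1.88-fold higher, and stayed under the filter in J1 at 2.51 and 2.52. Ccnd3 read 9.59 and 9.25 in J1 and 8.66, 8.48 and 8.81 in E14, with differences of -0.34, -0.18 and 0.15. The pooled limma differences were -0.32 ± 0.17 (SE, adjusted p = 0.719) for Ccnd2 and -0.15 ± 0.16 (SE, adjusted p = 0.824) for Ccnd3.

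In J1, 0 of the 9 genes were at least 2-fold different with Tet1 siRNA, against 1.57% of all kept genes. At least 1.5-fold different were 3, Ccnd2 and Cdkn2a lower and Ccne2 higher, against 9% of all kept genes (2.91% higher and 6.09% lower). With shRNA3387, 1 of the 9 was at least 2-fold different (1.81% of all kept genes), and with shRNA2863 also 1 (1.2%). It was Cdkn2a in both cases, at hairpin values under the filter. At least 2-fold lower were 0.653% and 0.609% of kept genes. At 1.5-fold, Ccne2 joined Cdkn2a with shRNA3387, against 8.75% of kept genes (5.39% higher and 3.36% lower). With shRNA2863 Cdkn2a was the 1 gene at 1.5-fold, against 6.89% (3.26% lower). The median difference of the 9 genes was -0.34 in J1, -0.18 with shRNA3387 and -0.03 with shRNA2863, where the medians over all 13619 kept genes were -0.01, -0.02 and -0.01. In J1, 2 of the 9 were higher and 7 lower. All 10 stem cell markers were also lower in J1 with Tet1 siRNA, with a median of -0.51, and 5 of 6 kept trophectoderm markers were higher, with a median of 0.59. With shRNA3387 and shRNA2863 the medians were -0.04 and -0.07 for the stem cell markers and -0.07 and 0.59 for the trophectoderm markers, of which 3 and 5 of 6 were higher. The part of such shifts in the cyclin and inhibitor values was not tested. In bulk RNA, fewer cells that express a gene and less RNA of it per cell cannot be told apart.

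Between the lines, Ccnd2 and Cdkn1b were higher in E14 and Cdkn2b and Ccna2 lower, and these 4 of the 9 genes passed the limma test of the line term, against 14.2% of all kept genes (6.37% higher and 7.8% lower). Ccnd2 read 6.26 and 5.66 in J1 with control and Tet1 siRNA and 8.44, 8.25 and 8.42 in E14 with scramble, shRNA3387 and shRNA2863, a difference of 2.46 ± 0.17 (SE, 3 and 2 arrays; limma adjusted p = 0.0169). The Cdkn1b difference was 1.94 ± 0.27 (SE; limma adjusted p = 0.0307). For Cdkn2b it was -1.31 ± 0.09 (SE; limma adjusted p = 0.017), and for Ccna2 -0.57 ± 0.06 (SE; limma adjusted p = 0.0232). With any 1 array left out, 0 of the 4 passed: 1 residual degree of freedom was then left, and estimates ran from 2.18 to 2.68 for Ccnd2, 1.60 to 2.20 for Cdkn1b, -1.36 to -1.25 for Cdkn2b and -0.60 to -0.07 for Ccna2, with adjusted p-values of 0.0834 or more. The -0.07 of Ccna2 came without the J1 Tet1 siRNA array, where its second probe set was the brightest and took the place of the first. With any other array left out, the Ccna2 estimate lay between -0.60 and -0.56. Nothing in the labels says that the arrays of a line came from separate cultures. The p-values of the line term therefore speak only of spread among 5 arrays, which may be technical.

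At each of the 4 Ccnd2 probe sets above the filter on all 5 arrays, every E14 array exceeded both J1 arrays, with gaps between the nearest arrays of 1.56 to 2.30. The E14 scramble array was 3.48-fold to 9.19-fold above the J1 control array at these 4. A further 2 probe sets were above the filter only in E14, so they had to differ and add no support. At those 2 the scramble array was at least 9.71-fold and at least 1.29-fold above the filter level of the J1 control array. For Ccna2 the probe sets disagreed: the second one gave a line difference of 0.14 ± 0.12 (SE; limma adjusted p = 0.5 with every probe set tested), so the lower level in E14 rests on 1 probe set of 2. For Cdkn1b, the other probe set was under the filter on 4 of 5 arrays.

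**Figure D3:**
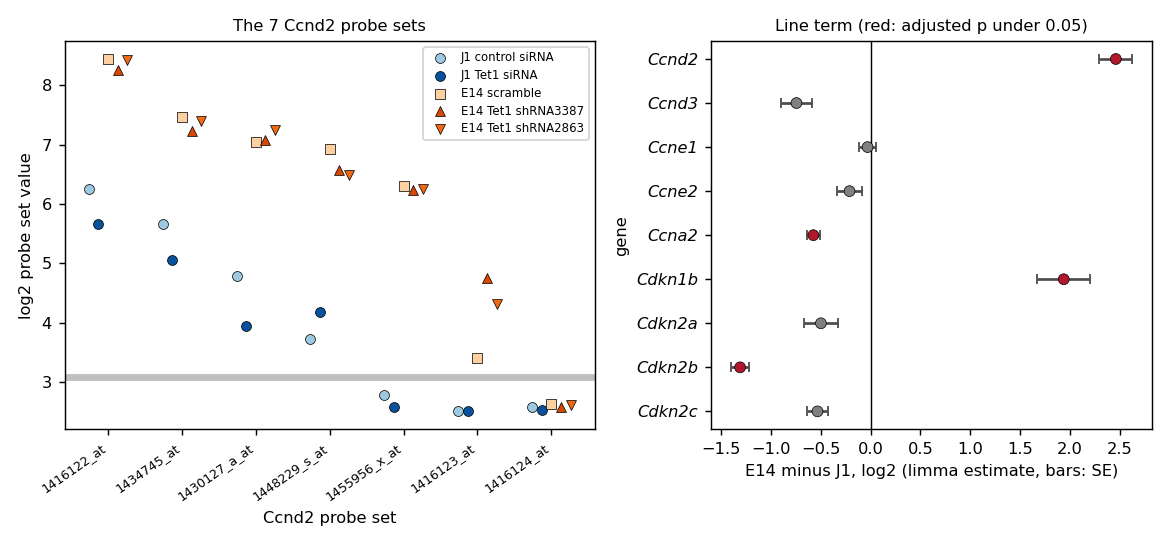
Left, log2 values of the 7 Ccnd2 probe sets on the 5 arrays with the filter levels as a grey band; right, limma estimate of E14 minus J1 (log2, bars are SE, 3 and 2 arrays) for the 9 genes, red where the adjusted p is under 0.05. The E14 points of Ccnd2 lie above the J1 points, and the 4 red genes are Ccnd2, Ccna2, Cdkn1b and Cdkn2b.

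The remaining genes did not pass the line test. Ccnd3 differed by -0.74 ± 0.16 (SE; limma adjusted p = 0.062; -0.07 with the median over its 3 probe sets), Cdkn2c by -0.53 ± 0.11 (0.0542), Cdkn2a by -0.50 ± 0.17 (0.148), Ccne2 by -0.21 ± 0.12 (0.324) and Ccne1 by -0.03 ± 0.08 (0.842). Non-overlap of the lines, seen for 6 of the 9 genes, is common on these arrays: 48.9% of all kept genes had it (27.1% with E14 above and 21.8% with E14 below). Set against the J1 control array alone, the E14 scramble array was at least 2-fold different at 3 of the 9, Ccnd2 at 4.53-fold higher, Cdkn1b at 3.03-fold higher and Cdkn2b at 2.38-fold lower, against 8.36% of all kept genes (3.52% higher and 4.84% lower).

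Fibroblast feeders were present in the J1 cultures only, and fibroblasts in culture are known to express Cdkn2a and Cdkn2b. Of 23 feeder markers, 18 were kept. Of these, 1 passed the line test as lower in E14, against 7.8% of all kept genes. It was Col1a2, a collagen chain of fibroblasts, which read 6.24 and 5.95 in J1 and 3.59 to 3.62 in E14. Its second probe set read 4.41 and 3.55 in J1 and lay under the filter in E14, at 2.63 to 2.70. The E14 scramble array was above the J1 control array at 14 of the 18, by 0.01 for Lox to 0.61 for Twist1. The share of all kept genes higher on the scramble array was not counted. Their median difference was 0.02, and the array medians were 3.52 with scramble and 3.45 in the J1 control. The log2 of the summed linear values of the 18 was 11.82 and 11.85 on the J1 arrays and 11.60 to 12.05 on the E14 arrays. That sum mostly reflects its brightest genes, Fn1, Vim and Tagln, and says little of the dimmer markers. These 3 were bright without feeders too: 10.27, 10.19 and 10.12 with scramble, and 10, 9.94 and 9.84 in the J1 control. Lum and Prrx1, which mark fibroblasts, read 3.11 and 3.01 and 3.09 and 3.10 on the J1 arrays, near the filter level. In E14 they read 3.14 to 3.19 and 3.08 to 3.13. Col5a1, of the same list, read 6.56 and 7.20 in J1 and 6.30 to 6.57 in E14. These genes were chosen after their values were seen, and the part of feeder RNA in the Cdkn2b difference was not tested.

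By the smallest distance between values centred on each gene's mean, over the 5 arrays, the kept genes most like Ccnd2 were Crabp1, a retinoic acid binding protein (distance 0.38), the pluripotency factor Klf4 (0.39) and the steroid synthesis enzyme Cyp11a1 (0.46). Klf4 read 8.97 and 8.10 in J1 and 10.71, 10.63 and 10.63 in E14. Ccnd2 was taken because it had the widest range of the 9 genes, 2.78, and a likeness over 5 arrays mainly restates the line difference.

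Among the other cell-cycle genes, no kept gene of the 5 lists passed the Tet1 test. Of the other cyclins, 10 of 12 were kept, with medians of 0.03, -0.14 and 0.02 in J1, shRNA3387 and shRNA2863. Ccnj was the 1 at least 2-fold different, reading 4.68 with scramble, 5.83 with shRNA3387 and 5.09 with shRNA2863. Ccnd1, the D-type cyclin that is not among the 9, differed by 0.03, -0.37 and -0.47. Ccng1, a p53 target, differed by 0.38, -0.56 and 0.07, and Ccno by -0.25, 0.22 and 0.59. In the line test 1 of the 10 was lower in E14, against 7.8% of all kept genes. It was Ccni, at -0.40 ± 0.07 (SE, limma adjusted p = 0.0425).

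The kinases and their regulators showed no 2-fold difference in any depletion (14 of 14 kept). Cdk6, a partner of the D-type cyclins, differed by -0.23 in J1 and 0.63 and 0.67 with the hairpins, and its second probe set by -0.37, 0.77 and 0.79. The phosphatases that activate these kinases differed too: Cdc25b by -0.77, -0.20 and -0.03 and Cdc25c by 0.04, -0.48 and -0.90. Wee1, which inhibits Cdk1, differed by -0.05, 0.43 and 0.32. None of the 14 passed the line test.

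All 4 other inhibitors were kept, and at the brightest probe set none was 2-fold different or passed a test. Cdkn1c, the imprinted gene of p57, read 7.65 and 7.93 in J1 and 6.68, 5.85 and 6.37 in E14, with differences of 0.28, -0.83 and -0.31 and a line difference of -1.46 (limma adjusted p = 0.0563). Cdkn1a, which encodes p21, differed by 0.09, -0.25 and 0.33. Its probe sets disagreed between the lines: E14 scramble differed from the J1 control by 0.46 at the brightest and by -1.54 at the other. Cdkn3 differed by -0.13, -0.52 and -0.20, and Cdkn2d by -0.10, -0.12 and -0.26.

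In the RB and E2F list (13 of 13 kept), medians were -0.23, -0.05 and 0.08. E2f2, an activating E2F factor, was lower in each depletion, by -0.51, -0.50 and -0.58, and its other probe set by -0.57, -0.06 and -0.01. E2f8 differed by -0.55, -0.13 and -0.26, Tfdp2 by -0.48, -0.07 and -0.40, and E2f5 by 0.15, 0.76 and 0.14. Tfdp1, a partner of E2F factors, read 10.03 with scramble and 10.87 with control siRNA, and its line difference of -0.65 did not pass (limma adjusted p = 0.0525). Between the lines E2f4, a repressive E2F factor, was lower in E14 by -1.89 ± 0.19 (SE, limma adjusted p = 0.0225) and E2f7 was higher by 0.65 ± 0.09 (SE, limma adjusted p = 0.0333). Thus 1 of the 13 was called lower and 1 higher, against 7.8% and 6.37% of all kept genes.

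Genes for the degradation of cyclins and inhibitors (19 of 21 kept) had medians of -0.05, 0.04 and 0.03 in the depletions, and none was 2-fold different. Ube2c, an enzyme of the anaphase-promoting complex, differed by -0.25, -0.48 and -0.52, Fzr1, its activator in G1, by -0.19, -0.32 and -0.56, and Cul4a by 0.18, 0.63 and 0.54. Between the lines 6 of the 19 were lower in E14 and 1 higher, where 7.8% and 6.37% of all kept genes were. Lower were Anapc11 and Cdc16, subunits of that complex (-1.55 ± 0.12 and -1.01 ± 0.14, SE; limma adjusted p = 0.0174 and 0.03), its inhibitor Fbxo5 (-0.84 ± 0.08), Btrc (-1.07 ± 0.16), Cul4b (-0.70 ± 0.10) and Cks1b (-0.43 ± 0.05). Cks2 was higher, by 0.74 ± 0.11. These line calls share the limit given above for the members, since no gene passed the line test with any 1 array left out.

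**Figure D4:**
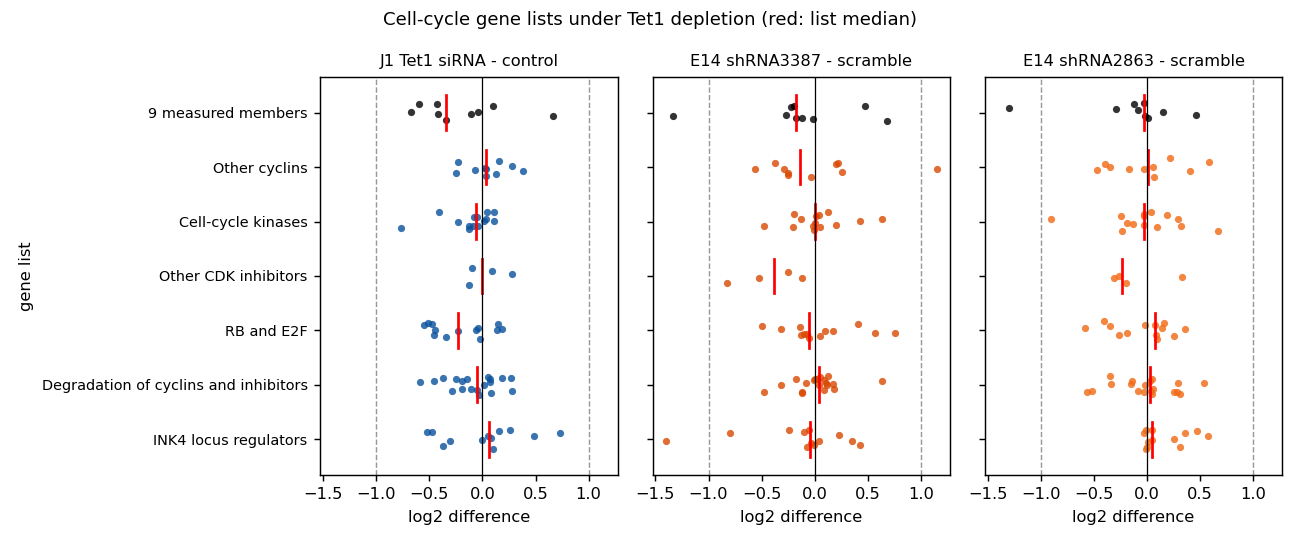
Log2 difference (horizontal axis) of each kept gene from the control array of its line, 1 panel per depletion, for the 9 measured members (black) and 6 lists of related genes, with red bars for list medians and dashed lines at 2-fold. Most points lie within 2-fold, and Cdkn2a is the black point beyond it with both hairpins, at values under the filter.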

How the data were processed

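The authors deposited log2 probe set values for 5 arrays, and the scale was read from their range, 1.38 to 14.12. Their summary, background correction and normalization are not given in the sources that were used, so array-wide scaling effects cannot be checked; array medians ran from 3.45 to 3.52. Values were used as deposited. Of 45101 probe sets, 34958 had 1 symbol, 932 several and 9211 none in the platform annotation; 34754 were matched by Entrez identifier to RefSeq of GRCm38.p6, and 0 symbols changed.

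The brightest probe set stood for each gene, and 13619 of 18193 genes exceeded the 40th percentile on at least 1 array. Differences between single arrays have no test and were called at 2-fold. For a value under the filter, the bound of a fold was taken against that array's filter level. Tests were two-sided in limma 3.58.1 (R 4.3.3), with a mean-variance trend and Benjamini-Hochberg adjustment over all kept genes at 0.05: a fit with line and Tet1 terms (2 residual degrees of freedom), and a fit of 4 means (1, from the hairpin pair). The script was tested on simulated data. All 10 members were named, and of each list up to 4 genes by mean absolute difference over the depletions and up to 2 by the control difference. Genes that passed the line test, feeder markers other than Col1a2 and second probe sets were chosen after their values were seen. Members and lists were chosen with earlier results of these data known. Alternatives were scaling, filters, probe set summaries, the trend, covariates and leaving out arrays.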

Additional observations from a re-analysis of the deposited data

How the results depend on the processing

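The counts of genes that passed the Tet1 test, the E14 test and the test of the difference of effects stayed at 0 under each alternative that could be fitted. The line term was the one result that moved widely: 1930 genes and 4 members passed it, 0 genes and 0 members with any 1 array left out (range 0 to 0), and 4238 probe sets, 8 of them of members, when every probe set was tested; fewer arrays and more rows are part of how those settings are built. The test of every probe set held 24018 probe sets, 19 of them of members. The 8 include a Ccnd2 probe set that was above the filter only in E14 and so had to differ. Shares of all probe sets at 2-fold were not counted. Members at least 2-fold different between the control arrays numbered 3, and 7 as probe sets, of which 5 were of Ccnd2, that one included. With shRNA3387 the count was 1, and 2 as probe sets or at 1.5-fold, and 0 with a filter at the 60th percentile, which leaves out Cdkn2a; with shRNA2863 it was 1, and 0 under that filter. In J1 it was 0, and 3 at 1.5-fold. Directions of single array differences turned with the median over probe sets, which takes in dim ones: Ccnd2 in J1 from -0.60 to 0.23, Cdkn1b in J1 from -0.42 to 0.09, and Ccnd3 from -0.34 to 0.01 in J1, from 0.15 to -0.08 with shRNA2863 and from -0.93 to 0.02 between controls. The median was taken on each array, so the 0.23 of Ccnd2 sets 1 probe set on the J1 control against another with Tet1 siRNA. Ccne2 between controls turned from -0.16 to 0.046 after quantile normalization. Fitted estimates turned only where they passed no test. The Tet1 estimate of Cdkn1b became 0.0343 with the median over probe sets and 0.243 without the line term, and ran from -0.42 to 0.175 over the settings that leave out 1 array. That of Cdkn2b became -0.0023 after quantile normalization, -0.18 without the line term and ran from -0.005 to 0.1 with 1 array left out. That of Ccnd2 became 0.0933 without the line term, and the line estimate of Ccne1 ran from -0.13 to 0.045 with 1 array left out. Apart from that of Ccnd2 in J1, the cause of these turns was not tested. Without J1 Tet1 siRNA the other probe set of Ccna2 became the brightest. With the median over probe sets Ccna2 lost its line call (-0.22, limma adjusted p = 0.126). In limma Ccnd3 gained one after quantile normalization, with the 60th percentile filter and without the Tet1 term (adjusted p = 0.0478, 0.0371 and 0.0408), and Cdkn2c after median centring, with that filter, with the median and without the Tet1 term (0.0467, 0.0498, 0.0463 and 0.0372). No paired analysis was possible because each group holds 1 array and the labels give no replicate numbers. The number of arrays limits the precision, and Cdkn2a with the hairpins lies at background signal. On the other arrays Cdkn2a was dim as well, at 3.34 to 4.01.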

Other observations

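Regulators of the locus that holds Cdkn2a and Cdkn2b were also measured, and 12 of 13 were kept. Their medians were 0.07, -0.04 and 0.05 in J1, shRNA3387 and shRNA2863. None passed the Tet1 test, where 0% of all kept genes did. Id1, an inhibitor of basic helix-loop-helix factors, differed by 0.73, -0.80 and 0.31. Tbx3, a repressor of the p19Arf promoter, read 8.94 with scramble, 7.54 with shRNA3387 and 8.95 with shRNA2863. Between the lines the Ets factors, which activate p16Ink4a transcription, were lower in E14, Ets2 by -1.53 ± 0.10 and Ets1 by -1.13 ± 0.13 (SE, limma adjusted p = 0.0169 and 0.0238). The Polycomb subunit Suz12 was also lower, by -1.06 ± 0.16, and the demethylase Kdm6b was higher by 0.83 ± 0.12. Thus 3 of the 12 were called lower and 1 higher, against 7.8% and 6.37% of all kept genes.

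Among neighbours of the 9 genes in the pathway, Ccnd1 and Cdkn1a each had a probe set that stood apart from the gene's brightest one in J1. For Ccnd1, the dimmest of 3 read 8.37 in the J1 control and 9.42 after Tet1 siRNA, a difference of 1.05, while the other 2 probe sets differed by 0.03 and 0.06. For Cdkn1a, the dimmer of 2 read 7.83 and 8.78, a difference of 0.95, while the brightest differed by 0.09. With the hairpins the 3 Ccnd1 probe sets were all lower than with scramble, by -0.37 to -0.54 with shRNA3387 and -0.47 to -0.74 with shRNA2863. These probe sets were chosen after their values were seen, and each value is a single array.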
